A study of Mus musculus with 20 samples.

Results

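A set of 8 of the 24062 genes in the deposited table was examined across the 4 groups of mice: the endosomal Toll-like receptors Tlr3, Tlr7, Tlr8, Tlr9 and Tlr13 and 3 genes for proteins that fold, carry or accompany them, Unc93b1, Cnpy3 and Slc15a4. They were chosen by symbol and not by a cutoff on measured values, but with earlier results of these data known. All 8 had values high enough to be tested at 7 and at 10 months.

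RNA-seq was performed on microglia from 20 male mice, with 1 whole brain per sample and no pooling. Male mThy1-α-synuclein mice, called HEM in the labels, carry full-length human wild-type α-synuclein under the murine Thy1 promoter, inserted on the X chromosome. This promoter drives expression mainly in neurons. Their controls (WT) lack the transgene, and all mice share the B6D2F1/J background, a cross of C57BL/6J with DBA/2J. The 7-month groups held 6 transgenic and 4 control animals, and the 10-month groups held 5 and 5. The labels name IBA1 beads for the selection of microglia, whereas the methods describe CD11b beads.

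Endosomal Toll-like receptors sense nucleic acids that reach endolysosomes after uptake of dying cells, debris or microbes. Tlr3 binds double-stranded RNA, Tlr7 and Tlr8 bind single-stranded RNA and its breakdown products, Tlr9 binds unmethylated CpG DNA, and Tlr13, which mice have and humans lack, binds bacterial ribosomal RNA. Cnpy3 helps the chaperone gp96 fold several of the receptors in the endoplasmic reticulum. Unc93b1 escorts the receptors to endosomes, and Slc15a4 is a lysosomal transporter needed for signaling from Tlr7 and Tlr9. All of these receptors except Tlr3 signal through the adaptor Myd88, and Tlr3 signals through Ticam1.

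The genes Tlr7, Tlr8 and Tlr13 lie on the X chromosome. On GRCm38 (mm10, GENCODE M21), Tlr7 spans chrX:167304929-167330558 and Tlr8 spans chrX:167242696-167264329, both on the minus strand and 40599 bases apart, while Tlr13 lies far from them at chrX:106143204-106160493 on the plus strand. Tlr3 spans chr8:45395665-45411080 on the minus strand and Tlr9 spans chr9:106222598-106226883 on the plus strand. Unc93b1 spans chr19:3935186-3949340 (plus), Cnpy3 chr17:46735705-46752214 (minus) and Slc15a4 chr5:127595664-127632897 (minus). Exons of Tlr3 overlap the antisense gene Gm45542, and exons of Slc15a4 overlap Gm43474 on the other strand. Whether the counting used strand is not given in the sources used here, so reads from these partners cannot be told apart from reads of the 2 genes.

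Promoters of the members that passed the test at either age and have an entry are shown, since these genes moved with genotype. The sequences are from RefSeq (GRCm38.p6), which held 6 of the 8 members. They run from 250 bases before to 50 bases after the RefSeq start, 5′ to 3′ on the strand of the gene. For Tlr3, Tlr13 and Slc15a4 this start lies inside the GENCODE span given above. Capitals mark matches to 5 motifs searched on both strands: GAGGAAG (the core of a PU.1 site, PU.1 being a lineage factor of microglia), CACGTG (an E-box), TGANTCA (AP-1), and the consensus forms of the NF-kB site and of the interferon-stimulated response element. The windows are chr8:45410331-45410630 (minus) for Tlr3, chr9:106222348-106222647 (plus) for Tlr9, chrX:106143025-106143324 (plus) for Tlr13 and chr5:127617343-127617642 (minus) for Slc15a4.
Tlr3: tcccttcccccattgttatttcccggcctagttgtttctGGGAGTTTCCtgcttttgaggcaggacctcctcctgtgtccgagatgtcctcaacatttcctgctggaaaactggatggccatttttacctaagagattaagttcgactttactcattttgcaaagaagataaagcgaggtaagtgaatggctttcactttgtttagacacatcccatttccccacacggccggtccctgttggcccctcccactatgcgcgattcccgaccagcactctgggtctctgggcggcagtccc
Tlr9: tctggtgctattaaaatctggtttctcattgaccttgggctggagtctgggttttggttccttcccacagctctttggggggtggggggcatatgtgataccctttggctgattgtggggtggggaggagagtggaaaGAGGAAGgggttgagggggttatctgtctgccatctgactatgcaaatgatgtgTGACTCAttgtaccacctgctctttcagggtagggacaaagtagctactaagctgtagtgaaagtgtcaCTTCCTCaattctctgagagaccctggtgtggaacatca
Tlr13: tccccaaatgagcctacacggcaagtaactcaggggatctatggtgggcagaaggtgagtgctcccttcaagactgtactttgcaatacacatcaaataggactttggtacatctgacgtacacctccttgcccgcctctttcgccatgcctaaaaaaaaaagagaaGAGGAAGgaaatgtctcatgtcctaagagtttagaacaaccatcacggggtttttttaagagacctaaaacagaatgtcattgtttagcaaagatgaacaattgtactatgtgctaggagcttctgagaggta
Slc15a4: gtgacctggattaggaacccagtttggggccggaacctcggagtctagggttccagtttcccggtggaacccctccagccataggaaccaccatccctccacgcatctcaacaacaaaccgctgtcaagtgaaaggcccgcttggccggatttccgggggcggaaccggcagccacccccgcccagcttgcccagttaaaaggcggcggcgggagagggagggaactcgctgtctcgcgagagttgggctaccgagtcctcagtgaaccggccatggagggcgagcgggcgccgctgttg
In these windows the Tlr3 promoter held an NF-kB match whose first base is at -211 from the start, a motif found in 0.411% of 32851 promoters of the same length. The Tlr9 promoter held PU.1 matches at -112 and 12 and an AP-1 match at -58. The Tlr13 promoter held a PU.1 match at -83. PU.1 matches were found in 13.6% of all promoters and AP-1 matches in 7.81%. Of the other members with an entry, the Cnpy3 promoter held an E-box at -7 (7.15% of promoters), and the Tlr8 promoter, like that of Slc15a4, held no match to these letters. The interferon-stimulated element, present in 3.44% of promoters, matched in none of the 6. Such matches describe letters in the window and do not show binding.

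Between 33404096 and 77806399 reads per mouse were counted on genes (median 49006014), and the chi-square between the counts of any pair of mice of a group was at least 23.4 per gene, so their spread was far above counting noise. Thy1, whose promoter drives the transgene, had a mean normalized count of 919 ± 337 at 7 months in transgenic animals, against 39.2 ± 14.4 in controls (SD, n = 6 and 4), and 1423 ± 263 against 17.4 ± 8.80 at 10 months (n = 5 and 5). The genotype labels thus matched Thy1 in all 20 mice, with no overlap at either age. The 12 microglial markers, P2ry12 and Tmem119 among them, summed to between 1831310 and 2416510 normalized counts per mouse. Neutrophil markers (6 genes, S100a8 and S100a9 among them) summed to between 42272 and 426941, so the RNA was not from microglia alone. At 7 months this sum fell into low and high values within both genotypes. It was 71636, 71416 and 42272 in mThy1-α-synuclein replicates 1, 2 and 3 and 72643 in wild-type replicate 4, and at least 238041 in the other 6 mice. At 10 months the sum of 5 monocyte markers did not overlap between genotypes, at 10656 to 21983 with the transgene and 22726 to 48117 without it. Markers of B cells and plasmacytoid dendritic cells, cell types known for high Tlr7 and Tlr9, stayed between 439 and 960 and between 381 and 839 normalized counts in sum.

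**Figure D1:**
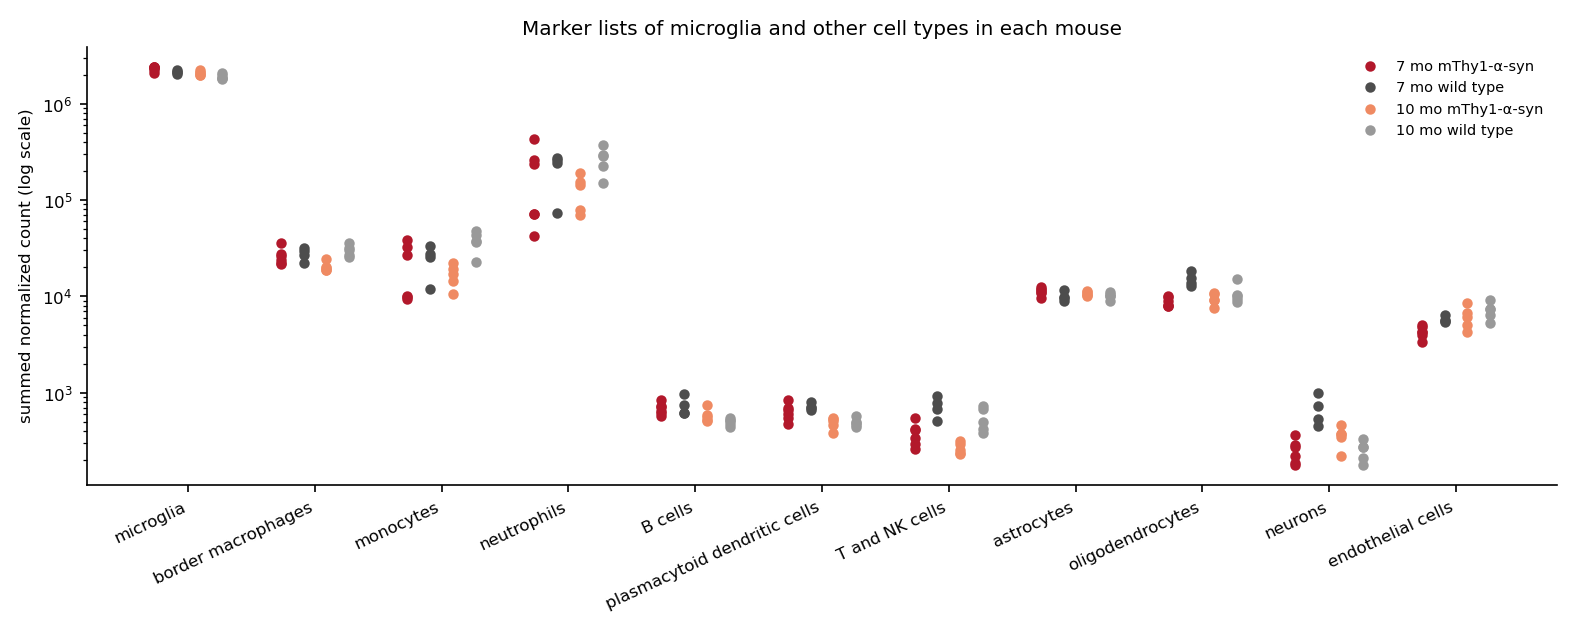
Summed normalized counts of marker lists for microglia and other cell types (y axis, log scale), 1 point per mouse, colored by group. Microglial sums lie near the top in every mouse, and neutrophil sums reach 426941.

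At 7 months, 4 of the 5 receptor genes were higher in mThy1-α-synuclein microglia: Tlr7, Tlr9, Tlr13 and Tlr3, by 1.28-fold to 1.52-fold. In each of them every mThy1-α-synuclein mouse lay above every wild-type mouse. Tlr8 and the 3 trafficking genes did not pass the test. Among all 13887 genes tested, 4.93% had an adjusted p under 0.05 in either direction, 2.23% being called higher and 2.7% lower, and in 3.55% the groups did not overlap with mThy1-α-synuclein mice above. Here and throughout, genotypes were compared with limma's moderated test on log2(normalized count + 1), and p-values were adjusted over all genes tested. In bulk samples, fewer cells of a type and less RNA per cell cannot be told apart.

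Tlr7 had the largest change of the set at 7 months. In mThy1-α-synuclein mice its normalized count ranged from 21968 to 26723 with a median of 23075, and the 4 wild-type mice had 15774, 15233, 13440 and 17739. Even the highest wild-type mouse stayed 4229 normalized counts short of the lowest mThy1-α-synuclein mouse. The means were 23617 ± 1760 and 15547 ± 1769 (SD, n = 6 and 4), a log2 fold change of 0.61 with a standard error of 0.083 (95% interval 0.43 to 0.78, adjusted p = 0.00183). Among all tested genes Tlr7 ranked 14th by p. Among mice with high neutrophil sums, mThy1-α-synuclein replicates 4, 5 and 6 had 22476, 23636 and 21968, against 15774, 15233 and 13440 in wild-type replicates 1, 2 and 3. The mThy1-α-synuclein replicates with low sums had 24386, 22513 and 26723, and wild-type replicate 4, the only control with a low sum, had 17739. The part of neutrophils in Tlr7 was not tested.

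Tlr9, the CpG DNA receptor, ranged from 4413 to 6500 in mThy1-α-synuclein mice (median 5210), against 3484, 3326, 3541 and 4049 in wild-type mice. The log2 fold change was 0.54 with a standard error of 0.096 (95% interval 0.34 to 0.75, adjusted p = 0.00424). Several genes near Tlr9 were also called higher at this age, as given below. Tlr13, the receptor for bacterial ribosomal RNA, ranged from 19714 to 25355 (median 22366), while the wild-type mice were tightly grouped at 16710, 17632, 17182 and 15934. Its log2 fold change was 0.39 with a standard error of 0.078 (adjusted p = 0.00937). Tlr3, the receptor for double-stranded RNA, ranged from 7203 to 8385 (median 8080) against 6542, 6296, 5914 and 6149. Its spread was the smallest of the receptors, with an SD of 5.49% of the mean with the transgene and 4.23% without it. Tlr3 had a log2 fold change of 0.36 with a standard error of 0.066 (adjusted p = 0.00567). All 4 receptors kept an adjusted p under 0.05 when any of the 10 mice was left out.

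Tlr8, the neighbor of Tlr7 on the X chromosome, had the opposite sign. It ranged from 533 to 1139 in mThy1-α-synuclein mice (median 658), and the wild-type mice had 962, 903, 563 and 917. A single mouse in each group stood apart, mThy1-α-synuclein replicate 4 at 1139 and wild-type replicate 3 at 563, and with them the groups overlapped. The log2 fold change was -0.25 with a standard error of 0.21 (95% interval -0.70 to 0.20, adjusted p = 0.518). Over the X chromosome, 7 of 433 tested genes were called higher and 12 lower at 7 months (4.39%), close to the 4.93% of all genes. The transgene lies on this chromosome at a site not given in the sources used here, so genes near it were not counted apart. Its part in the values of Tlr7, Tlr8 and Tlr13 was not tested.

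The trafficking genes did not pass the test at 7 months. Unc93b1 ranged from 30683 to 41863 in mThy1-α-synuclein mice (median 37071) and had 32814, 30409, 41298 and 34100 in wild-type mice, so the groups overlapped over most of their range (log2 fold change 0.098, 95% interval -0.11 to 0.31, adjusted p = 0.599). Cnpy3 ranged from 5536 to 6523 (median 5881) against 5683, 5457, 6062 and 5146 (log2 fold change 0.088, 95% interval -0.063 to 0.24, adjusted p = 0.505). For Slc15a4 the range was 2557 to 3679 (median 2946), and the wild-type mice had 2203, 1786, 2616 and 2901. Its log2 fold change was 0.36 with a standard error of 0.14, as large as that of Tlr3 but with a wider spread (95% interval 0.054 to 0.67, adjusted p = 0.164). The 4 mice with low neutrophil sums had the highest Slc15a4 of their genotype: 3544, 3679 and 3163 in mThy1-α-synuclein replicates 1, 2 and 3, and 2901 in wild-type replicate 4. The part of other cells in this spread was not tested.

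**Figure D2:**
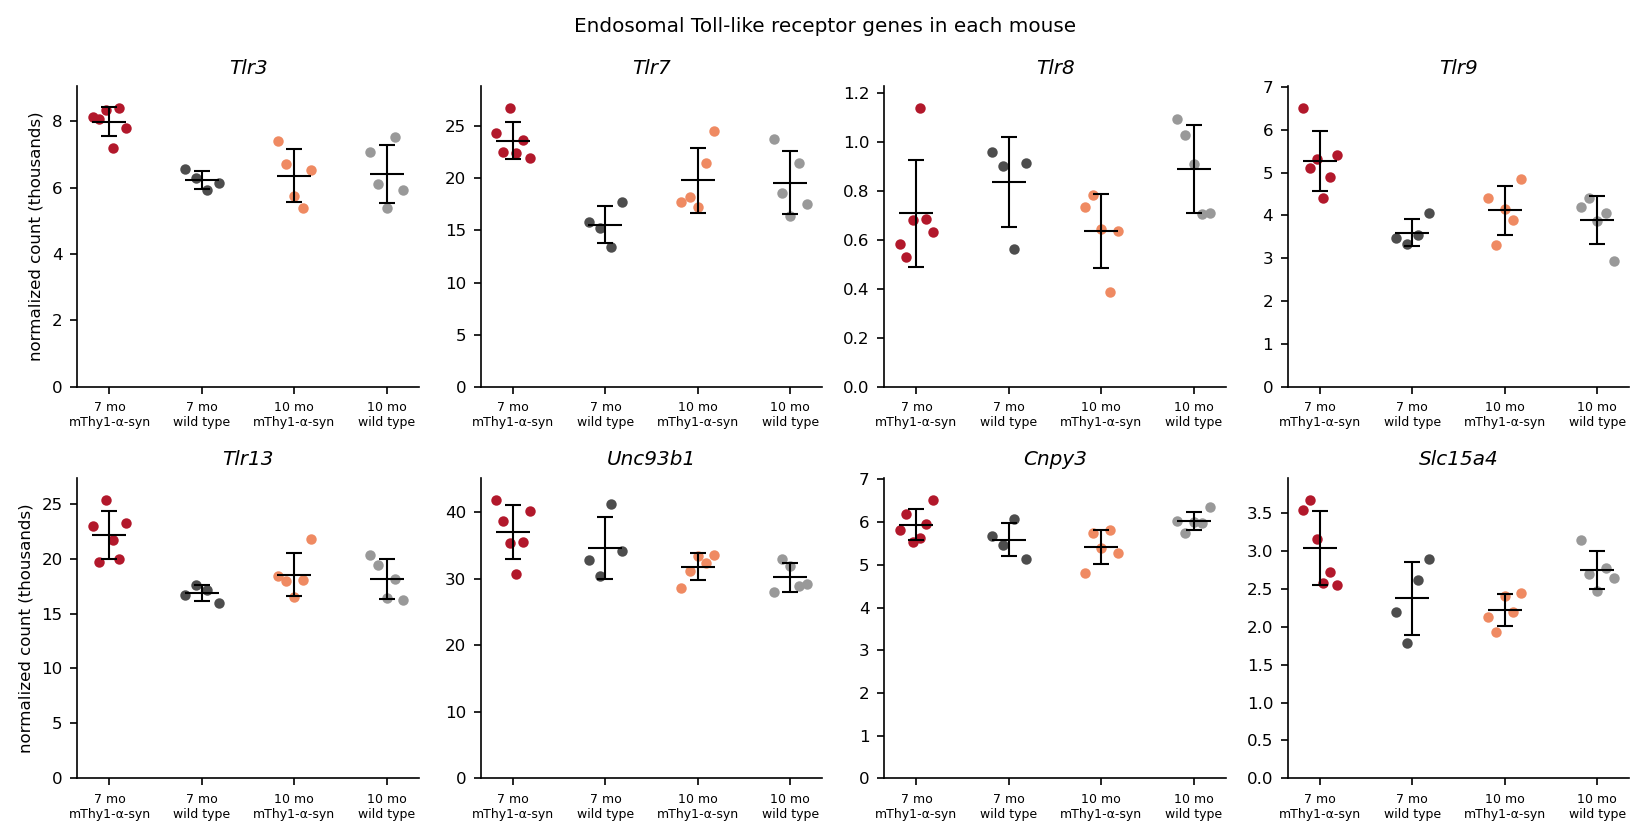
Normalized counts divided by 1000 (y axes, from 0) of the 8 genes, 1 point per mouse in each of the 4 groups, with the mean and SD in black. At 7 months the points of Tlr3, Tlr7, Tlr9 and Tlr13 do not overlap between genotypes, and at 10 months those of Slc15a4 do not.

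At 7 months other transcripts moved with genotype in the same samples. Summed markers of oligodendrocytes were 7851 to 10189 in transgenic and 12745 to 18193 in control animals, those of neurons 177 to 360 and 453 to 994, and those of endothelial cells 3322 to 5065 and 5475 to 6422. These 3 sums did not overlap between genotypes, nor did they exceed 18193 in any mouse, against at least 2025320 for the microglial markers at this age. Those of T and NK cells, 262 to 541 and 510 to 917, and of astrocytes, 9627 to 12428 and 8981 to 11667, overlapped. Of the 4 tested T and NK cell markers 2 were called lower, Ncr1 and Klrb1c (list median -1.26 on the log2 scale), and of 8 astrocyte markers 2 were called lower and 1 higher (list median -0.93). None of the 7 oligodendrocyte, 8 neuronal or 7 endothelial markers was at 0 in all mice of a group. Of the 12 microglial markers, 1 was called higher (Gpr34), and the median log2 fold change of the list was 0.10. The part of these cells in the receptor differences was not tested.

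At 10 months limma called 0 of the 5 receptor genes, and Slc15a4 was the only member called, lower in mThy1-α-synuclein mice. Of the receptors 1, Tlr8, had an unadjusted p under 0.05, and edgeR and DESeq2 called none. Of all 13627 genes tested, 7.67% were called, 3.88% higher and 3.79% lower, and in 3.49% the groups did not overlap with mThy1-α-synuclein mice below. A count of 1 in 8 is near this background.

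Slc15a4 had 2132, 1932, 2405, 2192 and 2454 normalized counts in the 5 mThy1-α-synuclein mice and 3148, 2700, 2479, 2781 and 2651 in the wild-type mice. Every mThy1-α-synuclein mouse lay below every wild-type mouse, although the nearest pair was only 25.1 counts apart. The means were 2223 ± 212 and 2752 ± 247 (SD, n = 5 and 5), a fold of 0.807 and a log2 fold change of -0.31 with a standard error of 0.083 (95% interval -0.49 to -0.13, adjusted p = 0.0381). The call was close to the cutoff. The adjusted p was 0.0794, 0.0842, 0.0512 and 0.0517 without mThy1-α-synuclein replicate 1, 2, 3 or 4, and 0.082, 0.073, 0.0538 and 0.0611 without wild-type replicate 1, 2, 4 or 5. It stayed under 0.05 only without mThy1-α-synuclein replicate 5 (0.0411) or wild-type replicate 3 (0.0382), and the direction was the same in all 10.

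Tlr7 had 17736, 18180, 17224, 21501 and 24516 in mThy1-α-synuclein mice and 23823, 18635, 16372, 21471 and 17569 in wild-type mice at 10 months. The groups covered the same range, with a log2 fold change of 0.019 (95% interval -0.23 to 0.27, adjusted p = 0.944). Tlr13 ranged from 16491 to 21758 and from 16232 to 20350 (0.032, interval -0.15 to 0.21), and Tlr9 from 3303 to 4838 and from 2943 to 4400 (0.084, interval -0.16 to 0.33). For Tlr3 the ranges were 5397 to 7397 and 5370 to 7529 (-0.0076, interval -0.23 to 0.21). The SD of Tlr3 was 12.5% and 13.7% of the mean in the 2 genotypes. Each of these 4 changes switched sign in at least 1 fit with a mouse left out. The test of the difference from 7 months is given below.

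Tlr8 stood at 735, 783, 644, 390 and 639 normalized counts with the transgene and at 1097, 1030, 909, 708 and 711 without it. The groups overlapped through the highest mThy1-α-synuclein mice, and the log2 fold change of -0.50 with a standard error of 0.19 did not pass (95% interval -0.90 to -0.095, adjusted p = 0.126). Tlr8 and the summed monocyte and neutrophil markers were low together in some mice and not in others. Replicate 4 of the mThy1-α-synuclein mice had the lowest Tlr8 and the lowest sums of this age, 10656 for monocytes and 70021 for neutrophils, and wild-type replicate 4 had the lowest Tlr8 and the lowest sums of its group, 22726 and 150747. In contrast, mThy1-α-synuclein replicate 2 had the highest Tlr8 of its group with the next to lowest sums, 14389 and 78322, and wild-type replicate 5 had a Tlr8 of 711 with sums of 37917 and 286668. Of the 5 monocyte markers 3 were called lower, of the 6 neutrophil markers 1, and of the 7 border macrophage markers 4. The border macrophage sums were 18879 to 24280 and 25613 to 35529, and those of 7 T and NK cell markers 233 to 317 and 380 to 718, neither with an overlap. The part of these cells in Tlr8 and Slc15a4 was not tested. Of the 12 microglial markers 4 were called higher and none lower. The log2 fold change was below 0 for 2 of them, Tmem119 (-0.19) and Olfml3 (-0.12).

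Unc93b1 had 28530, 31226, 33457, 32432 and 33530 in mThy1-α-synuclein mice and 27949, 32972, 31840, 28910 and 29253 in wild-type mice at 10 months, with a log2 fold change of 0.077 (95% interval -0.070 to 0.22, adjusted p = 0.544). Cnpy3 had 4819, 5753, 5396, 5816 and 5277 against 6029, 5748, 6012, 5970 and 6360. All but 1 of the wild-type mice lay above the highest mThy1-α-synuclein mouse, and the log2 fold change was -0.16 (95% interval -0.30 to -0.018, adjusted p = 0.158).

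The fitted difference in genotype effect between the ages (10 months less 7 months) had a negative sign for all 8 genes. Of 14457 tested genes, 49.9% had a negative difference. Of the 8 genes 2 passed the test, against 6.36% of all genes called, 2.62% with a negative and 3.74% with a positive sign. Tlr7 differed by -0.59 on the log2 scale with a standard error of 0.15 (95% interval -0.89 to -0.28, adjusted p = 0.0188), and Slc15a4 by -0.67 with a standard error of 0.17 (95% interval -1.03 to -0.32, adjusted p = 0.0197). Slc15a4 was thus fitted above wild type at 7 months and below it at 10 months. Tlr9 (-0.46, adjusted p = 0.0807), Tlr13 (-0.36, adjusted p = 0.0674) and Tlr3 (-0.36, adjusted p = 0.0792) missed the cutoff, so a difference between ages was shown for 1 of the 4 receptors called at 7 months. Left out singly, some mice brought these 3 under it: Tlr9 without mThy1-α-synuclein replicate 4 at 7 months (0.0463) or wild-type replicate 5 at 10 months (0.0201), Tlr13 without mThy1-α-synuclein replicate 5 (0.0296) or wild-type replicate 3 (0.0499) or 5 (0.0448) at 10 months, and Tlr3 without mThy1-α-synuclein replicate 1 (0.043) or wild-type replicate 3 (0.0336) at 10 months. Cnpy3 (-0.25, adjusted p = 0.114), Tlr8 (-0.24, adjusted p = 0.688) and Unc93b1 (-0.021, adjusted p = 0.942) did not pass. The sign of Unc93b1 switched in 6 of 20 fits with a mouse left out. The ages were normalized separately, and mice of the 2 ages were different animals, so age cannot be told apart from anything else that differed between the 2 sets of mice.

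**Figure D3:**
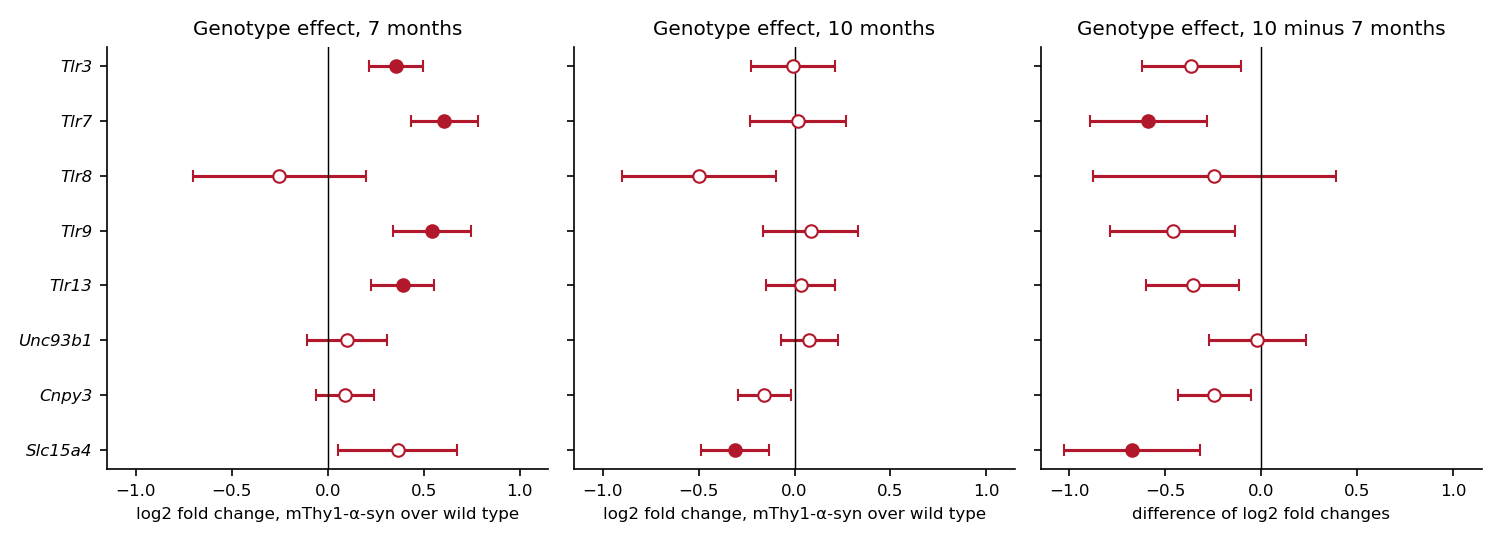
Log2 fold change of the genotype at 7 and 10 months and the difference between the ages (x axes) for the 8 genes, with 95% intervals from the fit. Filled points have an adjusted p under 0.05: 4 at 7 months, 1 at 10 months and 2 for the difference.

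Per kilobase of exon, Unc93b1 had by far the highest level of the set in every group and Tlr8 the lowest. In 7-month wild-type mice the mean levels, in normalized counts per kb, were 11434 ± 1546 for Unc93b1, 3918 ± 169 for Tlr13, 3809 ± 433 for Tlr7, 2101 ± 145 for Cnpy3, 1196 ± 50.6 for Tlr3, 1035 ± 90.0 for Tlr9, 447 ± 91.6 for Slc15a4 and 233 ± 51.2 for Tlr8 (SD, n = 4). Only 1.26% of 13245 tested genes with a known length had a higher level than Unc93b1 in these mice, 3.78% were above Tlr13 and 3.93% above Tlr7, while 46.4% were above Tlr8. Thus the RNA sensors Tlr13 and Tlr7 were the most abundant receptor transcripts and Tlr8 lay near the middle of all genes.

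The order was the same in the other 3 groups apart from Tlr7 and Tlr13. Tlr7 was above Tlr13 per kb in 1 of the 4 wild-type mice at 7 months, in 5 of 6 mThy1-α-synuclein mice at 7 months and in all 5 mice of each genotype at 10 months. These neighbors overlapped in level in each group, as did Tlr3 and Tlr9, while no other neighbors in the order overlapped within a group. Tlr3 was above Tlr9 in 4 of 4 wild-type and 4 of 6 mThy1-α-synuclein mice at 7 months and in 3 of 5 and 2 of 5 at 10 months. Relative to Unc93b1 in the same mouse, Tlr7 per kb was 0.406 to 0.560 at 7 months in transgenic animals and 0.242 to 0.386 in controls, and Tlr9 was 0.115 to 0.135 and 0.0747 to 0.103. These ratios did not overlap between genotypes at 7 months, whereas those of the other two receptors called did, with Tlr3 at 0.113 to 0.138 and 0.0834 to 0.121 and Tlr13 at 0.359 to 0.504 and 0.293 to 0.408. At 10 months all 4 overlapped, with Tlr7 at 0.382 to 0.543 and 0.382 to 0.633 and Tlr9 at 0.0922 to 0.135 and 0.0877 to 0.131. These ratios are given with no test.

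**Figure D4:**
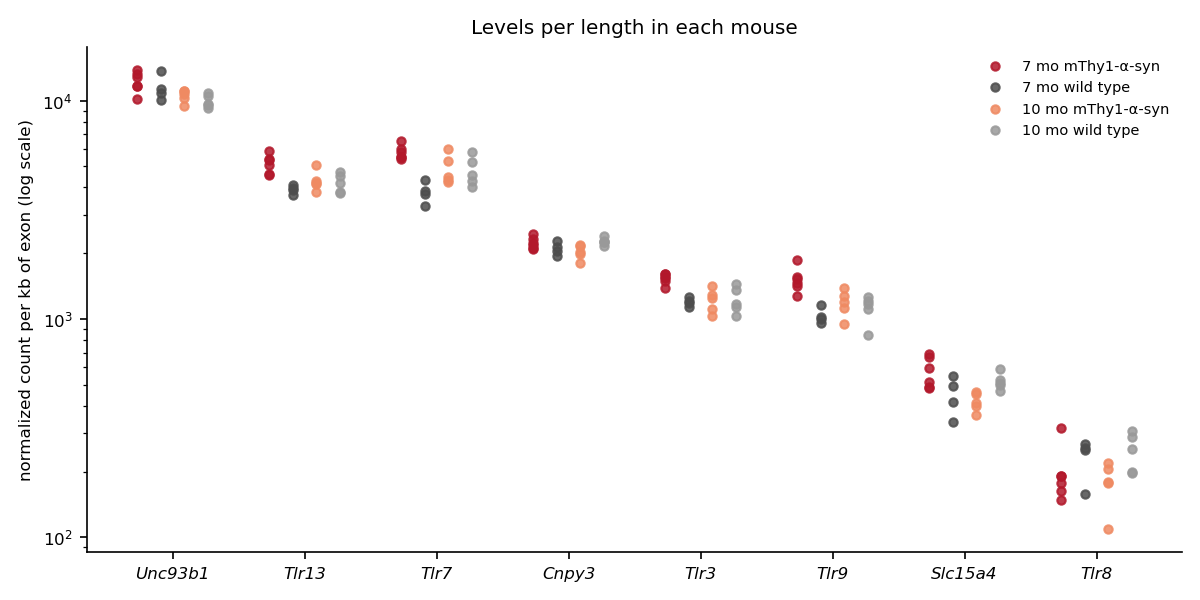
Normalized count per kb of exon (y axis, log scale) of the 8 genes, ordered by their mean in 7-month wild-type mice, 1 point per mouse and colored by group. Unc93b1 lies highest in every mouse and Tlr8 lowest.

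The other genes of the pathway were taken from 5 lists, whose counts stand beside 2.23% of all genes called higher and 2.7% lower at 7 months, and 3.88% and 3.79% at 10 months. Of 22 tested genes (24 listed) for chaperones, sorting and membrane partners, 1 was called higher at 7 months and 4 lower at 10 months, with medians of 0.044 and -0.13 on the log2 scale. The count of 1 is near the background. The medians over all tested genes were 0.00093 and -0.0026. Hsp90b1 encodes gp96, a chaperone of integrins and, with Cnpy3, of several Toll-like receptors. It was the gene of this list called at both ages, in opposite directions. At 7 months it averaged 113577 ± 9332 with the transgene and 92120 ± 5070 without (log2 fold change 0.30 ± 0.076 SE, adjusted p = 0.0337). At 10 months the means were 98313 ± 10848 and 135936 ± 10873 (-0.47 ± 0.081 SE, adjusted p = 0.00489). The difference between ages was -0.77 (standard error 0.11, adjusted p = 0.000373). At 10 months Hsp90b1 kept its call with any of the 10 mice left out, whereas at 7 months it kept it in 3 of 10 such fits, with an adjusted p of up to 0.101. Cnpy4, a relative of Cnpy3, was lower at 10 months (log2 fold change -0.37, adjusted p = 0.0140), as were Ap3d1, a subunit of the AP-3 adaptor that sorts receptors to lysosome-related organelles (-0.25, adjusted p = 0.0419), and Stx11, a syntaxin of late endosomes (-1.13, adjusted p = 0.0339). The calls of Ap3d1 and Stx11 were lost in 9 and 7 of the 10 fits with a mouse left out, and that of Cnpy4 in none.

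Of 20 tested genes (23 listed) for endolysosomal processing of receptors and nucleic acids, 2 were called higher at 7 months and 2 lower at 10 months, against 2.23% and 3.79% of all genes. Ifi30, a lysosomal thiol reductase, was higher at 7 months (log2 fold change 0.43, adjusted p = 0.0203), and its effect differed between ages by -0.75 (adjusted p = 0.00793). Slc29a3, a lysosomal nucleoside transporter, averaged 34865 ± 2427 against 27764 ± 1350 at 7 months (0.33, adjusted p = 0.0151). At 10 months the genes called lower were Cd14, a co-receptor for nucleic acid uptake as well as for lipopolysaccharide (-0.60, adjusted p = 0.00549), and Ctsk, which averaged 5.22 ± 6.71 against 83.3 ± 117 and so rests on few reads. With a mouse left out, the call was lost in 3 of 10 fits for Ifi30 at 7 months, 1 of 10 for Slc29a3 and 6 of 10 for Ctsk, and in none for Cd14. Unlike Ctsk, the cathepsins Ctsb, Ctsl and Ctss and the asparagine endopeptidase Lgmn, which cut the receptors in endolysosomes, were not called at either age. Lgmn had a log2 fold change of 0.20 at 7 months, with an unadjusted p of 0.0289 by limma (adjusted p = 0.177).

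Downstream of the receptors, limma called 0 of 28 tested adaptors, kinases and interferon regulatory factors at 7 months (median log2 fold change 0.054). Of them 3 had an unadjusted p under 0.05, and DESeq2 called 2 and edgeR 0. At 10 months 3 of 28 were called, near the 7.67% of all genes, with a median log2 fold change of 0.0045. Called lower were Myd88, the adaptor of Tlr7, Tlr8, Tlr9 and Tlr13 (-0.34, adjusted p = 0.0420), and Irak3, an inhibitory kinase homolog (-0.52, adjusted p = 0.0464). Called higher was Map3k7, the kinase TAK1 (0.21, adjusted p = 0.0464). Each of these 3 calls was lost in at least 8 of the 10 fits with a mouse left out.

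Of the 7 other Toll-like receptors, which sense lipids and proteins at the cell surface or in endosomes, 3 were called higher at 7 months and 1 at 10 months. Their median change at 7 months was 0.44 on the log2 scale, beside 0.39 for the endosomal receptors. Tlr1 was higher at both ages, at 3693 ± 646 against 2191 ± 301 at 7 months (log2 fold change 0.75, adjusted p = 0.00347) and 3546 ± 428 against 2434 ± 424 at 10 months (0.55, adjusted p = 0.0120), and kept both calls with any mouse left out. Tlr6 (0.49, adjusted p = 0.0159) and Tlr4 (0.44, adjusted p = 0.0297) were called at 7 months. The effects of Tlr6 (-0.80, adjusted p = 0.00805), Tlr2 (-0.64, adjusted p = 0.0157) and Tlr4 (-0.56, adjusted p = 0.0449) were lower at 10 months than at 7, like that of Tlr7. With a mouse left out, the 7-month call was lost in 2 of 10 fits for Tlr6 and 5 of 10 for Tlr4, and the difference between ages in 13 of 20 for Tlr4.

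Interferon-stimulated genes, transcribed when type I interferon made after receptor activation is sensed, had a median log2 fold change of 0.32 at 7 months and -0.78 at 10 months over 17 genes. Ifit3 was called higher at 7 months (0.50, adjusted p = 0.0144) and encodes an RNA-binding antiviral protein. The 4 called lower at 10 months were Bst2, which tethers virions (-0.75, adjusted p = 0.00422), Ifitm3, which blocks viral entry (-1.09, adjusted p = 0.00937), Irf9, a subunit of the interferon-induced transcription complex (-0.37, adjusted p = 0.0333), and Isg15, a ubiquitin-like modifier (-0.94, adjusted p = 0.0488). Bst2, Ifitm3 and, at 7 months, Ifit3 kept their calls with any mouse left out, and Irf9 and Isg15 lost theirs in 7 and 8 of 10 fits. Bst2 (-0.32) and Ifitm3 (-0.41) also lay below 0 at 7 months, without a call. Their difference between ages was not called (adjusted p = 0.370 and 0.148). The monocyte sums that were lower in the same mice stand above, and their part in these changes was not tested.

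**Figure D5:**
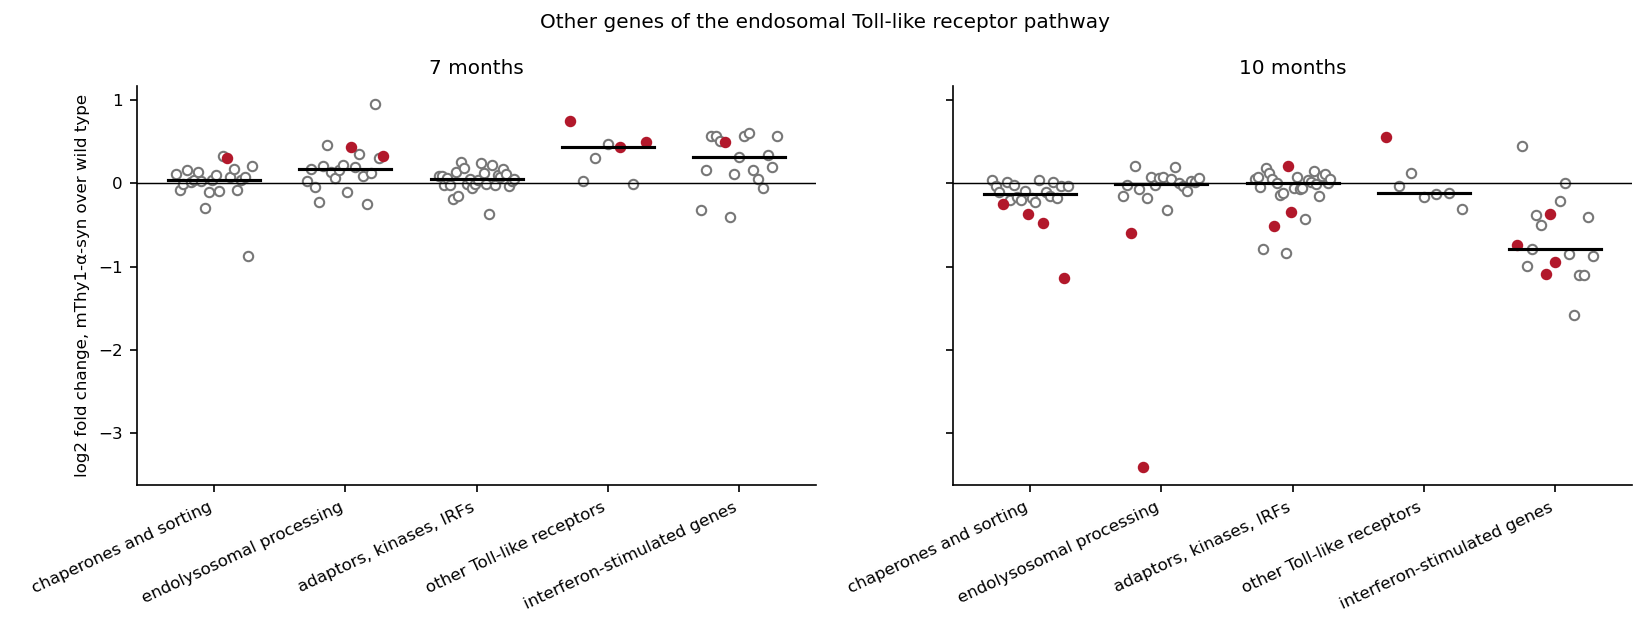
Log2 fold change of the genotype (y axis) for the tested genes of 5 pathway lists at 7 and 10 months, 1 point per gene, filled where the adjusted p was under 0.05, with the median of each list as a bar. The median of the interferon-stimulated genes is 0.32 at 7 months and -0.78 at 10 months.

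Around Tlr9, 6 of the 24 other tested genes within 1000 kb were called higher at 7 months (25%, against 2.23% of all genes): Abhd14b (log2 fold change 2.24), Dusp7 (1.39), Rpl29 (1.07), Poc1a (0.96), Parp3 (0.91) and Atp2c1 (0.83). The median log2 fold change of these 24 genes was 0.17 at 7 months. At 10 months 1 of 23 was called higher, Abhd14b (1.81), and 1 lower, Manf (-0.53). The part of this region in the Tlr9 difference was not tested. Around Tlr3 the gene called among 10 was Fam149a, lower at 7 months (-0.37) and higher at 10 months (0.26). Around Tlr13, Atp7a was called higher at 7 months (0.32), and at 10 months 2 of 10 were called, Pgk1 lower (-0.37) and Atrx higher (0.30). Around Tlr7 and Tlr8, 1 of 10 was called at 10 months, Tceanc, higher (0.49). Around Unc93b1, 1 of 46 was called at 7 months and 4 of 43 at 10 months (9.30%), all lower, against 7.67% of all genes called and 3.79% called lower. Around Cnpy3, 1 of 43 was called at 10 months, Vegfa, lower (-1.04).

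Genes with the most similar course over the 20 mice were found by the root-mean-square difference of log2 values standardized within each age, over 13483 genes. The nearest to Tlr7 were Man1a (0.443), Kcnk6 (0.456) and Slc31a1 (0.465), and Tlr13 ranked 17th. For Tlr13 the nearest were B3galt5 (0.382), Frrs1 (0.398) and Sgpl1 (0.491), with Tlr7 ranked 8th and Tlr9 62nd. Tlr3 was nearest to Casd1 (0.274), Sowahc (0.350) and Tmx3 (0.375), and Tlr9 to Dnajc16 (0.388), Adcy9 (0.420) and Rreb1 (0.478). Tlr8 stood away from the other members, the nearest of which, Tlr3, ranked 7366th, and was nearest to Itga4 (0.383), Bend4 (0.444) and Alcam (0.459). Unc93b1 was nearest to Tifab (0.522), 4632428N05Rik (0.548) and Sun2 (0.554), and Slc15a4 to Pla2g15 (0.403), BC017643 (0.456) and Pik3r5 (0.470). The 20 mice share genotype, age and size factors across genes, so these differences are descriptions.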

How the data were processed

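RNA was measured in microglia from 20 mice in 4 groups. Per the labels and the methods, the authors trimmed paired-end reads with Trim Galore 0.6.7, mapped them to mm10 with HISAT2 2.2.1, counted them per gene with featureCounts (settings not given in the sources used here), and divided the counts by DESeq2 1.44.0 size factors. The deposited signal values are these normalized counts. In every mouse 100% of values were whole multiples of a single step, so the reads were recovered. The reciprocals of the steps equalled size factors computed within each age. Raw read counts as deposited by the authors were not among the files used here.

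Genes were tested where 4 or more mice (7 months and the difference between ages) or 5 or more (10 months) reached a value of 10. limma 3.58.1 in R 4.3.3 was run on log2(value + 1) with trended priors and robust estimation. The difference between ages was 1 contrast over all 20 mice. Benjamini-Hochberg adjusted p-values under 0.05 were called. A fold change is on the log2(value + 1) scale. Levels per kb used GENCODE M21 exon lengths. The members, the gene lists and the tests were chosen with earlier results of these data known. Named genes are the 8 members, pathway genes past the cutoff in any test, the 3 genes nearest to each member, Thy1 for the label check, and markers or chromosomal neighbors beside a result. The genes nearest to Cnpy3 are not reported here. The neighbors, and pathway genes given as not called, were named after their values were seen. Alternatives were pseudocounts of 0.5 and 5, no filter, edgeR 4.0.16 and DESeq2 1.42.0 on recovered reads, quantile normalization, limma without trend and robust estimation, all 20 mice in 1 fit, the replicate number as a block, each mouse left out, and the longest transcript for levels.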

Additional observations from a re-analysis of the deposited data

Results flagged for a closer look

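Tlr8 in 7-month mThy1-α-synuclein replicate 4 (1139 normalized counts) stood far above the other 5 mice of its group, and Tlr8 in 7-month wild-type replicate 3 (563) stood far below the other 3. Both met Dixon's criterion for an outlying value, which chance meets in about 1 in 20 groups, and 32 groups were examined. Over the 10 fits with a mouse left out, the Tlr8 log2 fold change at 7 months lay between -0.432 and -0.175, and none passed the test.

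The genotype effect differed between the ages, by the test of that difference, for 2 members and 13 pathway genes, against 6.36% of all genes. The pathway genes were 3 of 22 for chaperones and sorting, 1 of 20 for endolysosomal processing and 1 of 28 adaptors, kinases and interferon regulatory factors. They also held 3 of 7 other Toll-like receptors and 5 of 17 interferon-stimulated genes. The counts of 1 were not above the share of all genes. On the log2 scale, 10 months minus 7 months, the difference was -0.588 for Tlr7 and -0.673 for Slc15a4. Among chaperones and sorting genes it was -0.770 for Hsp90b1, -0.407 for Cnpy4 and -0.404 for Ap3d1. It was -0.748 for Ifi30, and -0.637 for Tlr2, -0.563 for Tlr4 and -0.798 for Tlr6. Of the interferon-stimulated genes it was -1.26 for Isg15, -1.35 for Ifit1, -1 for Ifit3, -1.44 for Usp18 and -0.484 for Irf9. Irak1, a kinase downstream of Myd88, was the exception, with 0.310. With a mouse left out, the difference was lost in 16 of 20 fits for Cnpy4, 15 for Ifit3, 13 for Tlr4, 3 for Irak1 and 2 for Usp18, and in none for the other 10 genes. Under 8 other settings it was lost in 4 for Cnpy4, 4 for Ifit3 and 2 for Tlr4. It was lost in 1 setting each for Tlr7, Slc15a4, Ap3d1, Irak1, Isg15 and Usp18.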

How the results depend on the processing

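Of 528 member results under alternative settings, 484 kept their direction and side of the cutoff, and 19 changed sign, none of them a called result. At 7 months, 3 to 4 of the 8 members were called under the other settings and 4 in each fit with a mouse left out. At 10 months 1 member was called, and 0 with no filter on low values (Slc15a4 adjusted p = 0.0504), with limma without trend and robust estimation (0.0786), with all 20 mice in 1 fit (0.119), and 0 to 1 in the fits with a mouse left out. For the difference between ages, 2 to 4 were called with a mouse left out, 4 without wild-type replicate 3 or 5 at 10 months, and Tlr13 was added by DESeq2 (0.0436) and by quantile normalization (0.0327).

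Whether equal replicate numbers mark paired mice is not stated in the sources used here. Correlations of deviations from the group mean were -0.134 to 0.0995 between same-numbered mice. Between differently numbered mice they were -0.218 to 0.182. With so few mice these values cannot settle whether the numbers mark pairs. With the replicate number as a block, 3 members were called at 7 months (Tlr3 adjusted p = 0.052), 1 at 10 months (Tlr8 0.0233, Slc15a4 0.0687) and 0 for the difference between ages (Tlr7 0.0576, Slc15a4 0.0653). Over all genes the block gave 414 calls at 7 months and 482 for the difference, against 684 and 920.

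Changes of sign were seen for Tlr7 at 10 months under quantile normalization (-0.00312), and with a mouse left out for Tlr3 (-0.0683 to 0.0536), Tlr7 (-0.0609 to 0.0931), Tlr9 (-0.0138 to 0.16) and Tlr13 (-0.0278 to 0.0751) at 10 months and Unc93b1 in the difference between ages (-0.109 to 0.0386).

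Over all genes, calls ranged from 408 to 1158 at 7 months (408 without trend and robust estimation, 1158 with DESeq2), from 565 to 1694 at 10 months (565 and 1694 in the same order) and from 482 to 1330 for the difference. With a mouse left out they ranged from 280 to 860, 489 to 1232 and 618 to 1097. The causes were not tested. With the longest transcript, the order of levels per kb was the same in each group. Of 763 pathway gene calls under alternatives, 586 were kept and 177 lost, with no change of sign.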
